A study of Mus musculus with 24 samples.

Results

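Foxa1, Foxa2, Sox17, Gata4 and Gata6 encode transcription factors that build the endoderm of the mouse embryo. Their RNA was followed here through every group of a series on germ cell formation in culture. The 9 probe sets that the array annotation lists for 1 of these symbols alone were taken, of 45101 probe sets on the array. They stand for 5 genes, of 18193 genes with a probe set of their own. Foxa1 and Foxa2 have 1 probe set each, Sox17 and Gata4 have 2 each, and Gata6 has 3.

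All 24 samples came from mouse cells of strain C57BL/6, in 12 groups of 2 arrays. Unamplified arrays held epiblast stem cells (EpiSCs), which are cultured cells derived from the epiblast of embryonic day 5.75. They also held primordial germ cell-like cells (PGCLCs), made in culture from day 2 epiblast-like cells. The other unamplified groups were embryonic stem cells (ESCs), kept in 2i+LIF medium with no feeder cells, and epiblast-like cells (EpiLCs) 1, 2 and 3 days after induction from ESCs. Amplified arrays held EpiSCs, PGCLCs, primordial germ cells (PGCs) of embryonic day 9.5 (E9.5), day 2 EpiLCs, ESCs and epiblast. The epiblast stands for the stage before gastrulation, which the series places at embryonic day 5.5 to 6. For amplified arrays, 5 ng of RNA, worth 500 cells, went through 22 cycles of PCR. The sources used here do not state how PGCs and PGCLCs were isolated or which medium the EpiSCs grew in. The replicates are called biological, and nothing says that they were separate cultures or litters. Their p-values therefore cover only the spread between these samples.

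FOXA1 and FOXA2 are forkhead proteins that can bind closed chromatin, and FOXA2 is needed for the node, the notochord and the definitive endoderm of the mouse. SOX17 acts in definitive endoderm, primitive endoderm and endothelium, and in human germ cells it is a main regulator of their specification. GATA6 and GATA4 are zinc finger proteins of the primitive and visceral endoderm and of the heart, with GATA6 acting early in the choice between epiblast and primitive endoderm. EpiSCs are primed pluripotent cells known for a profile related to late epiblast and the anterior primitive streak.

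The correlation of the 2 arrays of a group, taken across genes, was 0.975 to 0.991 on unamplified arrays. On amplified arrays it was 0.911 for EpiSCs and between 0.957 and 0.972 for the other groups. The labels were checked with a germ cell gene and an epiblast gene, both chosen after their values were seen. Dppa3, a germ cell gene, read 4276 to 9022 on PGCLC and PGC arrays and 4.59 to 991 on all others. Fgf5, an epiblast gene, read 348 to 950 on EpiSC, EpiLC and epiblast arrays and 1 to 57.1 on all others. Intensities are on the linear scale of the deposited table, in which 1 is the lowest value, and they cannot be compared between genes.

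Promoter windows of 300 bases were found for 2 of the 5 genes, Foxa1 and Foxa2, the pair with the largest differences between groups. The sequences are from RefSeq (GRCm38.p6), and both genes lie on the minus strand. Each is printed 5′ to 3′ on the strand of the gene, and capitals mark a motif match. The Foxa1 window, chr12:57546062-57546361, holds 1 forkhead motif, TGTTTAC, read on the opposite strand at bases 110 to 116. Of 3 Foxa2 windows, the one shown, chr2:148045415-148045714, holds 1 GATA motif, AGATAA, at bases 68 to 73.
Foxa1: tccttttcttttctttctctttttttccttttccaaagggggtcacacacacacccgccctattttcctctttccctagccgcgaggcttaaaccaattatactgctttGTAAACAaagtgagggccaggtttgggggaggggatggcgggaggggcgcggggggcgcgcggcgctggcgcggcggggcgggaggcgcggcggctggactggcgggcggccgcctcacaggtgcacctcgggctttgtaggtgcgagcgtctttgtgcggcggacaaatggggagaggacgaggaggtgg
Foxa2: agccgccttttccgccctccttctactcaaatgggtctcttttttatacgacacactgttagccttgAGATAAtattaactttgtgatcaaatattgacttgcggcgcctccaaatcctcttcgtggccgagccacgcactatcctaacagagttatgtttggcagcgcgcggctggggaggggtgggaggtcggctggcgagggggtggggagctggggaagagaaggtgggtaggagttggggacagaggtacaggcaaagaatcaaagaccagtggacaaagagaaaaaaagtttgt
Searches covered both strands for the forkhead motifs TGTTTAC and TATTTAC, the SOX motif ATTGTT and the GATA motif AGATAA. No other match was found in the 4 windows of these genes. Over all 32851 windows of the table, TGTTTAC was found in 3.65% and AGATAA in 11.2%. TATTTAC was found in 3.04% and ATTGTT in 10.7%. A match is a run of letters, not a bound site.

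Foxa1 was high in EpiSCs and near the bottom of the scale in the other cultured cells. On unamplified arrays its probe set read 701 and 722 in EpiSCs. It read 1 and 1 in PGCLCs, 1.80 and 1 in ESCs, 1 and 6.71 in day 1 EpiLCs, 1 and 4.17 in day 2 EpiLCs, and 1 and 1 in day 3 EpiLCs. Both EpiSC arrays lay above all 10 others, whose groups overlapped with each other. On amplified arrays Foxa1 read 1090 and 608 in EpiSCs. It read 1 and 1 in PGCLCs, 20.2 and 29.5 in E9.5 PGCs, 3.44 and 6.51 in day 2 EpiLCs, 1.17 and 1 in ESCs, and 22.1 and 8.66 in the epiblast. EpiSCs again stood apart, E9.5 PGCs and the epiblast overlapped in second place, and PGCLCs and ESCs were lowest.

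Foxa2 was also highest in EpiSCs, while the order of the other groups differed. On unamplified arrays it read 772 and 679 in EpiSCs. The other groups lay between 1.43 and 13.7 and overlapped with their neighbours in the order of means. On amplified arrays Foxa2 read 731 and 618 in EpiSCs. It read 14.5 and 14.4 in PGCLCs, 34.7 and 20.5 in E9.5 PGCs, 16.6 and 12.2 in day 2 EpiLCs, 15.1 and 15.1 in ESCs, and 44.3 and 41.5 in the epiblast. The epiblast was second and did not overlap with E9.5 PGCs, which came next, while PGCLCs and day 2 EpiLCs overlapped at the bottom.

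**Figure D1:**
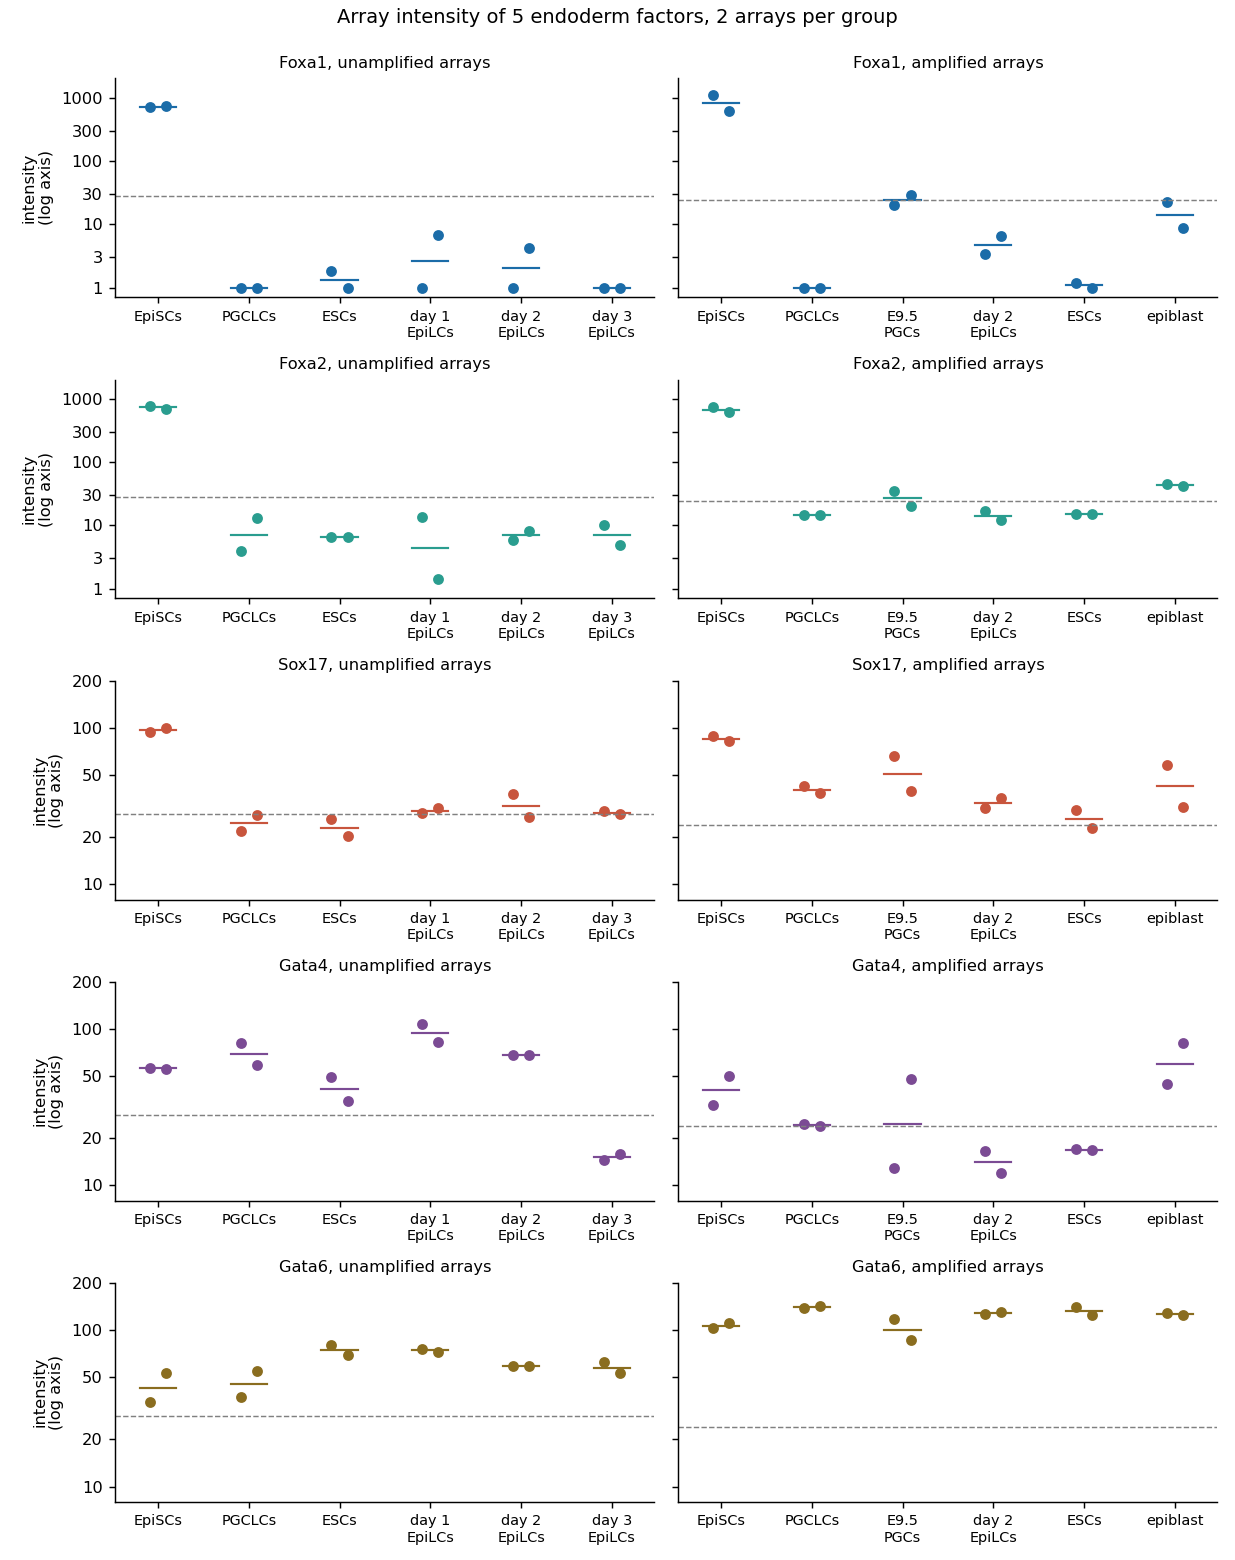
Intensity (log axis) of the 5 endoderm factors, by the probe set with the highest mean of each gene, on unamplified arrays (left) and amplified arrays (right). Each point is 1 array, bars are means of the log values, and the dashed line is the level used to filter low values (28.1 and 24). Foxa1 and Foxa2 lie between 608 and 1090 in EpiSCs and at 44.3 or below in every other group, Sox17 is highest in EpiSCs, and Gata4 and Gata6 follow other orders.

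A gene was called where its limma p, with Benjamini-Hochberg adjustment across every gene tested, was under 0.05 and its log2 difference was at least 1 in size. Genes entered the test only if their intensity lay above the filter level, the 40th percentile of the unamplified or amplified table, on 2 or more arrays. Where the lower group lay below that level, a printed fold is given against it as "at least", which is a choice of scale and not a test of detection. For some list genes only the log2 difference is given, also where the lower group lay below that level. Fewer expressing cells and less RNA per cell cannot be told apart in these samples.

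In EpiSCs against day 2 EpiLCs on unamplified arrays, 3 of the 5 genes were called, all higher in EpiSCs. Of all 14934 genes tested there, 12.4% were called higher. Foxa1 was higher by 7.41 ± 0.33 on the log2 scale (SE, n = 2 arrays a group), at least 25.3-fold, with a limma adjusted p of 2.6e-08. Its values in unamplified ESCs, day 2 and day 3 EpiLCs and PGCLCs were all raised to the floor of 4.2. These groups therefore add no spread to its SE and p, and the size of its difference depends on the floor. The lowest Foxa1 difference over the alternatives run was 4.66. Foxa2 was higher by 6.69 ± 0.62, at least 25.8-fold (limma adjusted p = 5.7e-06). Sox17 was higher by 1.60 ± 0.24, a fold of 3.04 (limma adjusted p = 0.00021). Foxa1 and Foxa2 passed the filter on unamplified arrays only through the 2 EpiSC arrays, so a difference there was bound to appear, and their calls also stood with no filter.

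Amplified arrays gave calls for the same 3 genes in this comparison, beside 8.61% of 15608 genes called higher. Foxa1 was higher in EpiSCs than in day 2 EpiLCs by 7.28 ± 0.50, at least 33.9-fold (limma adjusted p = 2.5e-05). Foxa2 was higher by 5.56 ± 0.31, at least 28.0-fold (limma adjusted p = 1.0e-05). Foxa1 exceeded the filter level on 3 amplified arrays, both of EpiSCs and 1 of E9.5 PGCs, so it too entered the amplified tests through EpiSCs and a difference in them was bound to appear. Its amplified EpiSC calls also stood with no filter. Foxa2 exceeded that level on 5 amplified arrays, 3 of them not of EpiSCs. Sox17 was higher by 1.35 ± 0.36 (limma adjusted p = 0.035), and this call was lost without any 1 of the 4 arrays compared, with adjusted p between 0.063 and 0.149. The difference between amplified and unamplified arrays in this contrast was called for 0 of the 5 genes, and for 0.295% of all genes. At an unadjusted p under 0.05 it counted 1, Gata4. For Foxa1 it was -0.12 ± 0.58, and for Foxa2 it was -1.13 ± 0.75.

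Against ESCs on unamplified arrays, the same 3 genes were called higher in EpiSCs, beside 15.5% of all genes. The log2 differences were 7.41 for Foxa1, 6.81 for Foxa2 and 2.07 for Sox17, with limma adjusted p of 2.4e-05 or less. All 3 ESC means lay below the filter level, and the folds were at least 25.3, 25.8 and 3.43. These contrasts and those against day 2 EpiLCs share the EpiSC arrays. Against the epiblast on amplified arrays, 2 of the 5 genes were called, Foxa1 and Foxa2, beside 8.97% of all genes called higher. Foxa1 was higher in EpiSCs by 5.88 ± 0.50, at least 33.9-fold (limma adjusted p = 9.4e-05). Foxa2 was higher by 3.97 ± 0.31, a fold of 15.7 (limma adjusted p = 6.5e-05). Sox17 differed by 1.00 ± 0.36 and was not called (limma adjusted p = 0.108). With the replicate number as a block its adjusted p was 0.042 at the same difference.

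**Figure D2:**
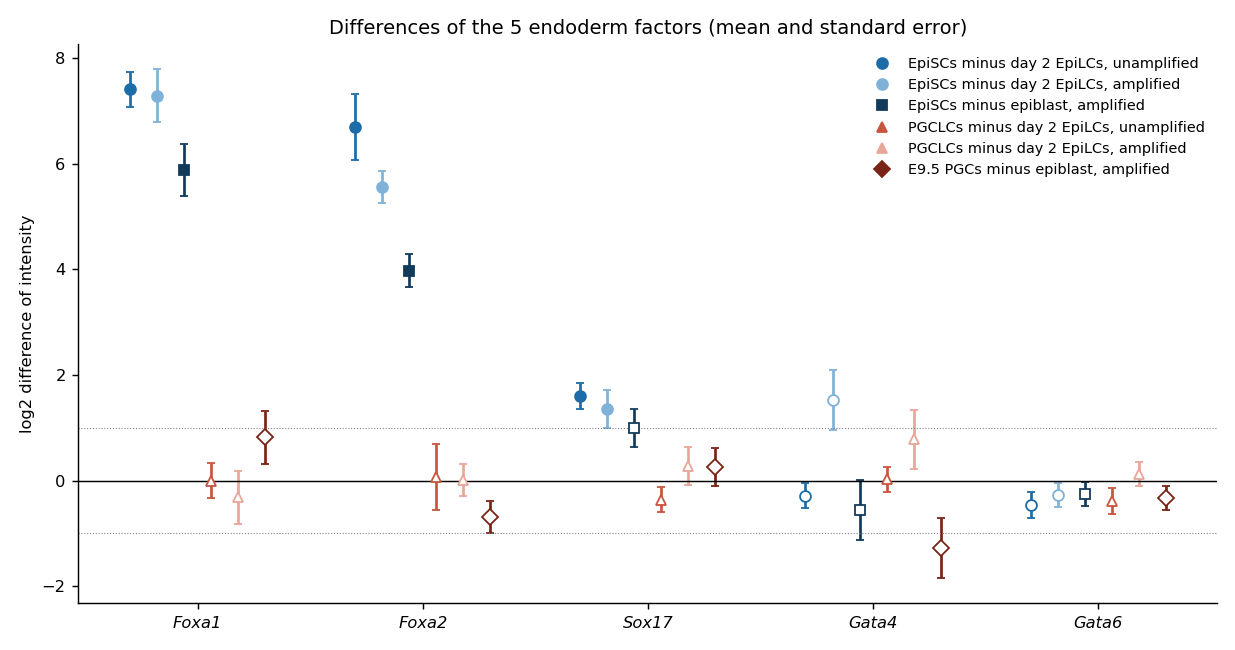
Log2 differences of intensity for the 5 endoderm factors in 6 comparisons, with standard errors from limma. Filled symbols passed the test, open symbols did not, and dotted lines mark a difference of 1 in size. Foxa1 and Foxa2 lie between 3.97 and 7.41 in the EpiSC comparisons and within 0.82 of 0 in the germ cell comparisons. Both genes lie below the filter level in PGCLCs and in day 2 EpiLCs.

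Sox17 is read by 2 probe sets that ranked the groups alike at the top, with r of 0.93 over the 12 unamplified and 0.90 over the 12 amplified arrays. The first, 1421657_a_at, has the higher mean and stands for the gene in gene-level tests. It read 93.5 and 99.3 in unamplified EpiSCs, and the other unamplified groups lay between 20.2 and 37.5. On amplified arrays it read 87.9 and 81.9 in EpiSCs, 42.6 and 38.1 in PGCLCs, 66.1 and 39.2 in E9.5 PGCs, 31.0 and 35.7 in day 2 EpiLCs, 29.9 and 22.9 in ESCs, and 57.8 and 31.1 in the epiblast. E9.5 PGCs, the epiblast and PGCLCs overlapped behind EpiSCs.

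The second Sox17 probe set, 1429177_x_at, has a wider range. By its name, some of its probes can also match other transcripts. It read 165 and 180 in unamplified EpiSCs, and 12.6 to 25.4 in the other unamplified groups. On amplified arrays it read 139 and 160 in EpiSCs, 52.2 and 31.6 in PGCLCs, 110 and 52.0 in E9.5 PGCs, 1 and 5.68 in day 2 EpiLCs, 11.1 and 6.46 in ESCs, and 79.7 and 10.1 in the epiblast. The arrays of the 2 embryo groups spread widely, while no EpiSC array overlapped with any other group.

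Fitted among all probe sets, 1429177_x_at was higher in EpiSCs than in day 2 EpiLCs by 3.17 ± 0.23 on unamplified arrays, at least 6.14-fold (limma adjusted p = 1.3e-06), beside 13.1% of probe sets called higher. It passed the filter there through the 2 EpiSC arrays alone. Against ESCs it was higher by 3.10 ± 0.23, at least 6.14-fold, beside 16%. On amplified arrays it was higher in EpiSCs than in day 2 EpiLCs by 4.93 ± 0.81, at least 6.20-fold (limma adjusted p = 0.0044), beside 8.01%. In PGCLCs against day 2 EpiLCs it was called on amplified arrays, by 3.05 ± 0.81 and at least 1.69-fold (limma adjusted p = 0.038), beside 5.87% of 26745 probe sets called higher. It was not called on unamplified arrays, where it differed by -0.34 ± 0.23. The gap between these differences was 3.39 ± 0.90 and did not pass the test (limma adjusted p = 0.089). The other Sox17 probe set differed between amplified PGCLCs and day 2 EpiLCs by 0.28 ± 0.36.

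Sox17 is also an endothelial gene. Some endothelial markers were higher in PGCLCs than in day 2 EpiLCs on both kinds of array. Of the 2 Sox17 probe sets only 1429177_x_at was called higher, and on amplified arrays alone. On amplified arrays 7 of the 10 listed markers were called higher in PGCLCs than in day 2 EpiLCs, and their summed intensity was 1883 and 2400 against 275 and 371. Emcn, a sialomucin of vessels, read 276 and 333 in PGCLCs, and Tie1, a receptor of endothelium, read 106 and 110. Both lay below 10 on the 2 day 2 EpiLC arrays. On unamplified arrays, where neither Sox17 probe set was called, 4 of 8 tested markers were called higher and 0 lower. The sum there was 1397 and 1110 in PGCLCs against 392 and 372 in day 2 EpiLCs. Cdh5, the cadherin that defines endothelium, read 19.3 and 23.3 in amplified PGCLCs, below the filter level. Pecam1, which germ cells also express, read 423 and 847 there. The part of these markers in the Sox17 values was not tested.

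Gata4 followed another course. Its representative probe set, 1418863_at, read 49.3 and 34.6 in ESCs, 108 and 81.9 in day 1 EpiLCs, 67.9 and 68.5 in day 2 EpiLCs, and 14.6 and 15.8 in day 3 EpiLCs. These 4 groups did not overlap. EpiSCs read 56.1 and 55.7 and PGCLCs 81.3 and 59.0, within the range of the first EpiLC days and ESCs. In day 1 EpiLCs Gata4 was higher than in ESCs by 1.19 ± 0.24 (limma adjusted p = 0.0021), the 1 member called there, beside 5.65% of genes called higher. In day 3 EpiLCs it was lower than in day 2 EpiLCs by -2.17 ± 0.24, at least 2.43-fold (limma adjusted p = 0.00011), again the 1 member called, beside 2.78% of genes called lower. In day 2 against day 1 EpiLCs, and in day 2 EpiLCs against ESCs, 0 of the 5 genes were called, beside 8.04% and 16.5% of all genes. At an unadjusted p under 0.05 these counts were 0 and 1, with Gata4 at 0.72 in day 2 EpiLCs against ESCs. That difference also passed the adjustment (limma adjusted p = 0.028) and missed the call only by its size.

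The other Gata4 probe set, 1418864_at, did not follow this course. It read 24.1 and 20.4 in ESCs, 29.8 and 11.5 in day 1 EpiLCs, 24.4 and 14.3 in day 2 EpiLCs, and 13.7 and 24.8 in day 3 EpiLCs. These groups overlapped, and only 1 of its 12 unamplified values exceeded the filter level, so it was not tested there. The correlation of the 2 probe sets was -0.08 over the unamplified and -0.37 over the amplified arrays. With the mean of both as the value of the gene, neither Gata4 call stood, with differences of 0.46 and -1.09 (limma adjusted p = 0.37 and 0.054). The day 1 call was also lost without day 1 EpiLC replicate 1, at 0.99, and without ESC replicate 2, at 0.93, both just under the size needed.

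On amplified arrays Gata4 was highest in the epiblast, at 44.2 and 80.7, overlapping with EpiSCs at 32.8 and 50.3. It read 24.6 and 24.1 in PGCLCs, 12.8 and 47.6 in E9.5 PGCs, 16.7 and 12 in day 2 EpiLCs, and 17.0 and 16.8 in ESCs. The 2 PGC arrays lay far apart. Gata4 was called in 0 amplified comparisons. EpiSCs differed from day 2 EpiLCs by 1.52 ± 0.56 on amplified arrays (limma adjusted p = 0.108) and by -0.29 ± 0.24 on unamplified arrays, and the gap of 1.81 ± 0.64 did not pass the test (limma adjusted p = 0.331). Without amplified EpiSC replicate 1 that gap was 2.12 and passed (limma adjusted p = 0.043).

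Gata6 depended on the probe set. The representative, 1443081_at, has the highest mean and lay above the filter level on all 24 arrays. It read between 34.4 and 80.2 on unamplified arrays and between 85.7 and 143 on amplified arrays. It was called in 0 of the comparisons. In EpiSCs against ESCs it differed by -0.80 (limma adjusted p = 0.017), and in PGCLCs against ESCs by -0.72 (limma adjusted p = 0.028). Both missed the call only because the difference was smaller than 1 in size. Its lowest unamplified groups were EpiSCs, at 34.4 and 53.1, and PGCLCs, at 37.2 and 54.5.

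The probe set 1425464_at showed a different order. On unamplified arrays it read 77.8 and 76.7 in PGCLCs, 40.1 and 28.2 in EpiSCs, 20.2 and 18.2 in ESCs, 17.8 and 8.07 in day 1 EpiLCs, 13.0 and 16.7 in day 2 EpiLCs, and 11.8 and 14.7 in day 3 EpiLCs. PGCLCs were highest, EpiSCs second, and neither overlapped with another group. In PGCLCs it was higher than in day 2 EpiLCs by 2.39 ± 0.37, at least 2.75-fold (limma adjusted p = 0.00027), beside 9.25% of 26893 probe sets called higher. Against ESCs it was higher by 2.01 ± 0.37, at least 2.75-fold (limma adjusted p = 0.00089), beside 9.7% of probe sets. It exceeded the filter level on 4 unamplified arrays, all of PGCLCs or EpiSCs. It thus entered these tests only through the groups where it was high, and a difference there was bound to appear. The remaining probe set, 1425463_at, read 35.8 and 39.8 in PGCLCs and 6.36 to 26.5 elsewhere on unamplified arrays. It passed the filter there through the PGCLC arrays alone, and was not called against day 2 EpiLCs, at 1.37 ± 0.61 (limma adjusted p = 0.083). The gene-level Gata6 value of this comparison, from 1443081_at, was -0.38 and was not called. Markers of several cell types were also higher in unamplified PGCLCs than in day 2 EpiLCs, beside the 20.6% of all genes called in either direction. Of 15 visceral and primitive endoderm markers tested, 6 were called higher and 2 lower, with a median difference of 0.67. Of 12 fibroblast markers 7 were called higher and 2 lower, with a median of 1.26, and the 4 of 8 endothelial markers had a list median of 0.99. On amplified arrays 3 of 16 visceral and primitive endoderm markers were called higher and 1 lower. On unamplified arrays 5 of 15 of these markers were called higher and 2 lower in PGCLCs than in ESCs. The summed intensity of the visceral and primitive endoderm markers was 7124 and 7186 in unamplified ESCs, above PGCLCs. It was 5083 and 4238 in unamplified PGCLCs, against 3705 and 3911 in day 2 EpiLCs. Cubn read 135 and 105 in PGCLCs, against 17.5 and 28.8, while Afp, the fetal albumin of this tissue, read 9.97 and 8.69 and Ttr 23.6 and 24.3 in PGCLCs, below the filter level. The part of these cell types in the Gata6 values was not tested.

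On amplified arrays 1425464_at read 54.9 and 54.7 in EpiSCs, 24 and 32.0 in PGCLCs, 54.8 and 30.4 in E9.5 PGCs, 15.4 and 20.8 in day 2 EpiLCs, 18.8 and 14.0 in ESCs, and 36.9 and 27.6 in the epiblast. EpiSCs overlapped with E9.5 PGCs at the top, and PGCLCs overlapped with the epiblast. EpiSCs were higher than day 2 EpiLCs on both kinds of array, by 1.61 ± 0.36 amplified and 1.19 ± 0.37 unamplified (limma adjusted p = 0.020 in each). The day 2 EpiLC means lay below the filter level, and the folds were at least 2.28 amplified and at least 1.2 unamplified. On unamplified arrays this probe set passed the filter only through EpiSCs and PGCLCs, so a difference there was bound to appear. Amplified PGCLCs differed from day 2 EpiLCs by 0.63 ± 0.36 and were not called (limma adjusted p = 0.334). The gap to the unamplified difference was -1.76 ± 0.52 and did not pass the test (limma adjusted p = 0.141). The correlation of 1425464_at with 1443081_at was -0.65 over the unamplified and -0.42 over the amplified arrays. The probe set 1425463_at was not higher in amplified PGCLCs, at 20.5 and 15.8, with 8.40 to 27.3 in the other amplified groups. It differed there from day 2 EpiLCs by -0.10 ± 0.51. Its correlation with 1425464_at was 0.80 over the unamplified and -0.001 over the amplified arrays.

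**Figure D3:**
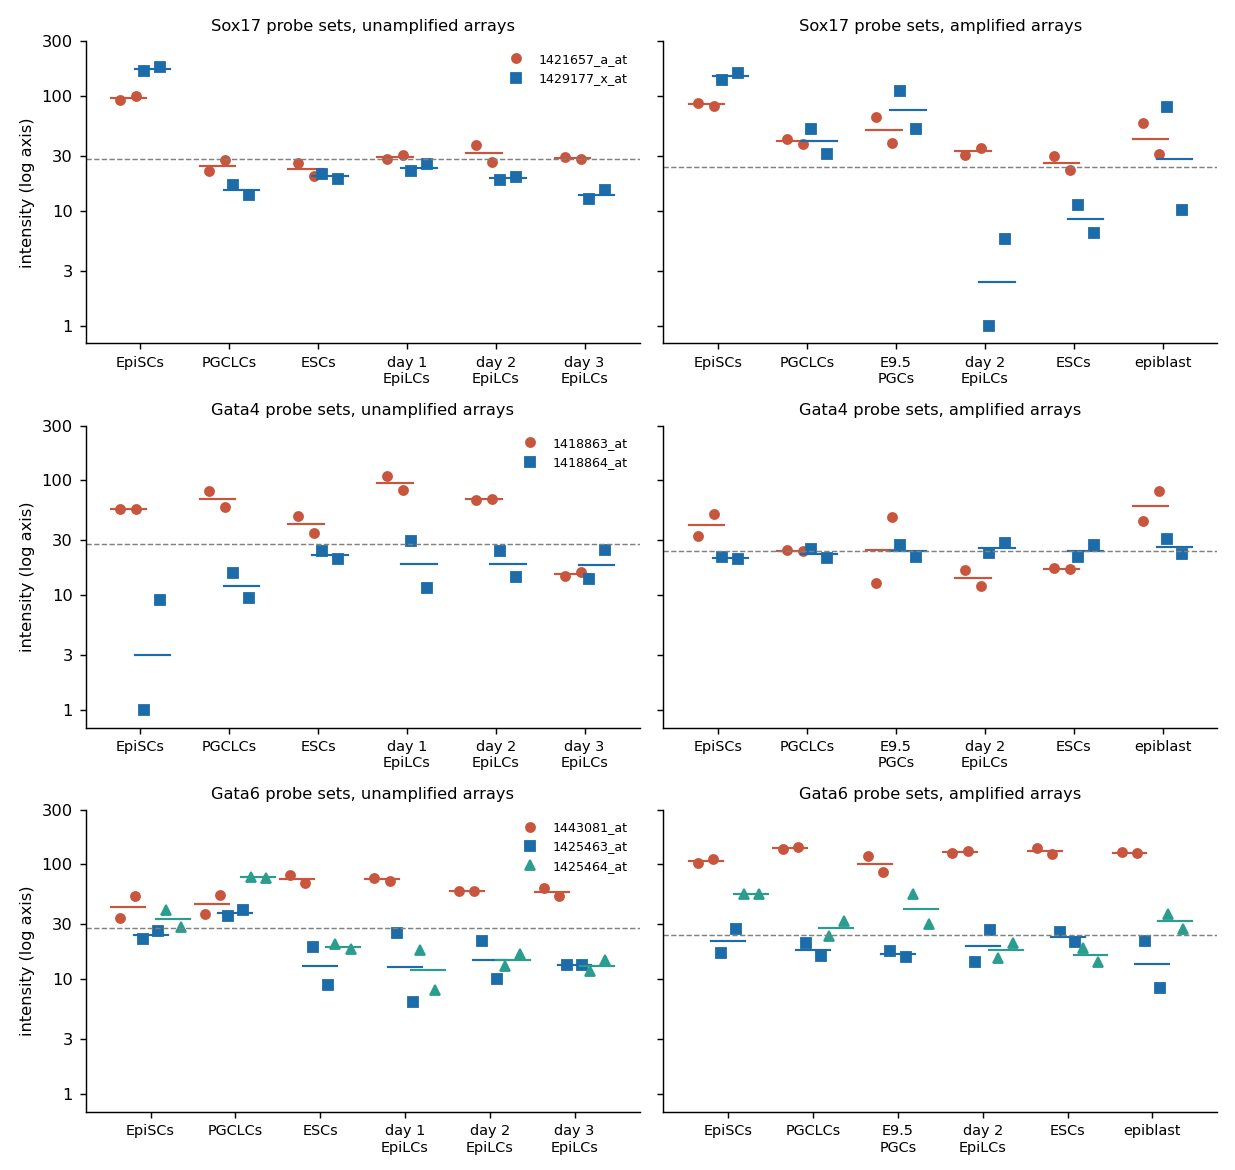
Intensity (log axis) of each probe set of Sox17, Gata4 and Gata6 by group, unamplified arrays left and amplified arrays right; points are single arrays, bars are means of the log values and the dashed line is the filter level. Both Sox17 probe sets peak in EpiSCs, while the probe sets of Gata4 and Gata6 rank the groups differently, with 1425464_at at 77.8 and 76.7 in unamplified PGCLCs.

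At the gene level, PGCLCs against day 2 EpiLCs called 0 of the 5 genes on either kind of array, beside 20.6% and 12.7% of all genes called in either direction. At an unadjusted p under 0.05 the counts were also 0. Foxa1, Foxa2 and Sox17 differed there by between -0.36 and 0.28 on the log2 scale. Foxa1 and Foxa2 lay below the filter level in both groups on both kinds of array, so the lack of a call says little about them. Every unamplified Foxa1 value of these groups lay below the floor of 4.2, so no difference could appear. Probe sets that do not stand for their gene were called higher: 1425464_at of Gata6 on unamplified arrays and 1429177_x_at of Sox17 on amplified arrays. PGCLCs against ESCs also called 0, beside 20.6%, with 2 at an unadjusted p under 0.05, Gata4 at 0.75 and Gata6 at -0.72. Both also passed the adjustment (limma adjusted p = 0.021 and 0.028) and missed the call only by the size of the difference. E9.5 PGCs against the epiblast called 0, beside 10.5%, with Foxa1 at 0.82 ± 0.50, Foxa2 at -0.69 ± 0.31 and Gata4, the 1 gene with an unadjusted p under 0.05, at -1.27 ± 0.56. Day 2 EpiLCs against ESCs on amplified arrays called 0, beside 8.51%, and 0 at an unadjusted p under 0.05. The test of whether culture and embryo took different steps, PGCLCs minus day 2 EpiLCs against E9.5 PGCs minus epiblast, called 0 of the 5 and 0.513% of all genes, with Gata4 at an unadjusted p under 0.05 and a gap of 2.05. The PGCLC step set between amplified and unamplified arrays called 0 of the 5, also at an unadjusted p under 0.05, and 0.845% of all genes.

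In PGCLCs against E9.5 PGCs, Foxa1 was the 1 member called, lower by -2.54 ± 0.50 (limma adjusted p = 0.027), beside 1.33% of genes called lower. Its fold was at least 1.01, since the PGC mean lay just above the filter level. The call was lost without any 1 of the 4 arrays, with adjusted p between 0.081 and 0.154. Of 4 blood markers tested, 2 were called higher and 1 lower in E9.5 PGCs than in the epiblast. The 2 E9.5 PGC arrays differed in globin RNA: the embryonic globin gene Hba-x read 8258 in replicate 1 and 3346 in replicate 2. In the same arrays Foxa1 read 20.2 and 29.5, Foxa2 34.7 and 20.5, and both Sox17 probe sets were higher in replicate 1. The part of blood cells in these values was not tested.

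Day 2 EpiLCs against the epiblast called Foxa2, lower by -1.59 ± 0.31 and at least 1.78-fold (limma adjusted p = 0.049), beside 0.308% of genes called lower. The call was lost in 10 of 14 alternatives, among them each single array left out, with adjusted p between 0.096 and 0.300 there. Gata4 differed by -2.08 ± 0.56 and Foxa1 by -1.40 ± 0.50, and neither was called (limma adjusted p = 0.168 and 0.320).

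The 2 epiblast arrays differed in visceral endoderm RNA. Ttr, a carrier of thyroid hormone, read 558 in replicate 1 and 71.4 in replicate 2, and Apoa1, an apolipoprotein, read 612 and 93.8. Amn and Cubn, which form an uptake receptor of this tissue, read 592 and 148, and 640 and 199. The sum of the 17 listed visceral and primitive endoderm genes was 6600 and 3535, and 13 of them lay above the filter level on both arrays. Foxa1 was higher in the same replicate, at 22.1 and 8.66, as were both Sox17 probe sets. Foxa2 was nearly equal, at 44.3 and 41.5, and Gata4 was lower there, at 44.2 and 80.7. The part of visceral endoderm in these values was not tested. Without epiblast replicate 1, EpiSCs differed from the epiblast by 6.55 for Foxa1 and 4.02 for Foxa2. Replicate 1 was the higher for both genes, so leaving it out was bound to widen the gap. Over all alternatives run, each array left out among them, the lowest differences were 5.08 for Foxa1 and 3.81 for Foxa2. Sox17 differed by 1.45 without epiblast replicate 1, and by 0.55 without replicate 2.

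Some other endoderm and streak genes were high in EpiSCs beside Foxa1 and Foxa2. Of 13 tested genes in a list of 15 regulators, 6 were called higher and 1 lower in EpiSCs than in day 2 EpiLCs on unamplified arrays. The list's median difference was 0.85, against 0.02 over all genes. Against ESCs, 5 were called higher and 1 lower, and the median was 0.03, against 0.02 over all genes. The list's summed intensity was 2374 and 2332 in EpiSCs, within the range of EpiLCs, at 2195 and 2286 on day 2 and 2651 and 2794 on day 1. Such a sum is set mostly by its strongest genes. Of 14 list genes, 12 lay above the filter level on both EpiSC arrays, against 7 in day 1 and in day 2 EpiLCs and 9 in ESCs. Cer1, a secreted Nodal, BMP and Wnt antagonist of the anterior endoderm, read 530 and 463 in EpiSCs, against 1.02 and 1 in day 2 EpiLCs. Lhx1, a partner of FOXA2 and OTX2 in the organiser, read 155 and 151 in EpiSCs, against 2.99 and 3.26. Dkk1, a Wnt antagonist, was higher by 4.06 ± 0.24, and Gsc, an organiser homeobox gene, by 3.93 ± 0.29. Gsc was not restricted to EpiSCs, since ESCs read 63.1 and 60.0.

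Amplified arrays called 5 higher and 0 lower of 12 tested genes of this list, and the difference was 5.57 ± 0.80 for Cer1 and 6.44 ± 0.41 for Lhx1. Against the epiblast, 4 of 12 were called higher in EpiSCs, Cer1, Dkk1, Lhx1 and Gsc, by 2.49 to 4, and the list median was 0.07, against 0.06 over all genes. In PGCLCs against day 2 EpiLCs on unamplified arrays 3 were called higher and 1 lower. Cxcr4, a chemokine receptor of endoderm and germ cells, was higher there by 5.50 ± 0.35, at least 10.9-fold, Lhx1 by 4.95 ± 0.29 and Dkk1 by 3.69 ± 0.24. Otx2, a homeobox gene of the epiblast and anterior endoderm, was lower by -5.79 ± 0.40, while Cer1 read 1 on every PGCLC array. For the same comparison on amplified arrays, 2 of 12 tested were called higher and 2 lower, with a list median of -0.02, against -0.04 over all genes. Cxcr4 lay below the filter level on both amplified PGCLC arrays. In E9.5 PGCs against the epiblast 0 were called higher and 4 lower, with Otx2 lower by -7.89 ± 0.81 and Eomes, a T-box gene of the streak, by -4.78 ± 0.42. Day 2 EpiLCs against the epiblast had 0 higher and 3 lower: Lhx1, Eomes and Gsc.

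Visceral and primitive endoderm genes split. In EpiSCs against day 2 EpiLCs 8 of 15 tested were called higher and 1 lower on unamplified arrays, and 6 of 16 higher and 2 lower on amplified arrays. The median differences were 1.29 and 1.07, against 0.02 and 0.03 over all genes. Bmp2, a BMP ligand, was higher by 5.69 ± 0.41 on unamplified arrays, Pdgfra, a receptor kinase, by 4.81 ± 0.27, and the basement membrane gene Col4a2 by 3.82 ± 0.16. Genes specific to visceral endoderm stayed low: on unamplified EpiSC arrays Afp read 8.90 and 8.84, Ttr 14.5 and 15.3, Amn 10.4 and 12.1, and Cubn 17.9 and 11.3. Each of these 4 genes lay below the filter level of 28.1 there. Apoa1, called higher on amplified arrays by 3.16 ± 0.70, read 45.2 and 31.1 in EpiSCs. Against the epiblast 4 were called higher and 5 lower in EpiSCs, with Cubn lower by -5.11 ± 0.56.

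**Figure D4:**
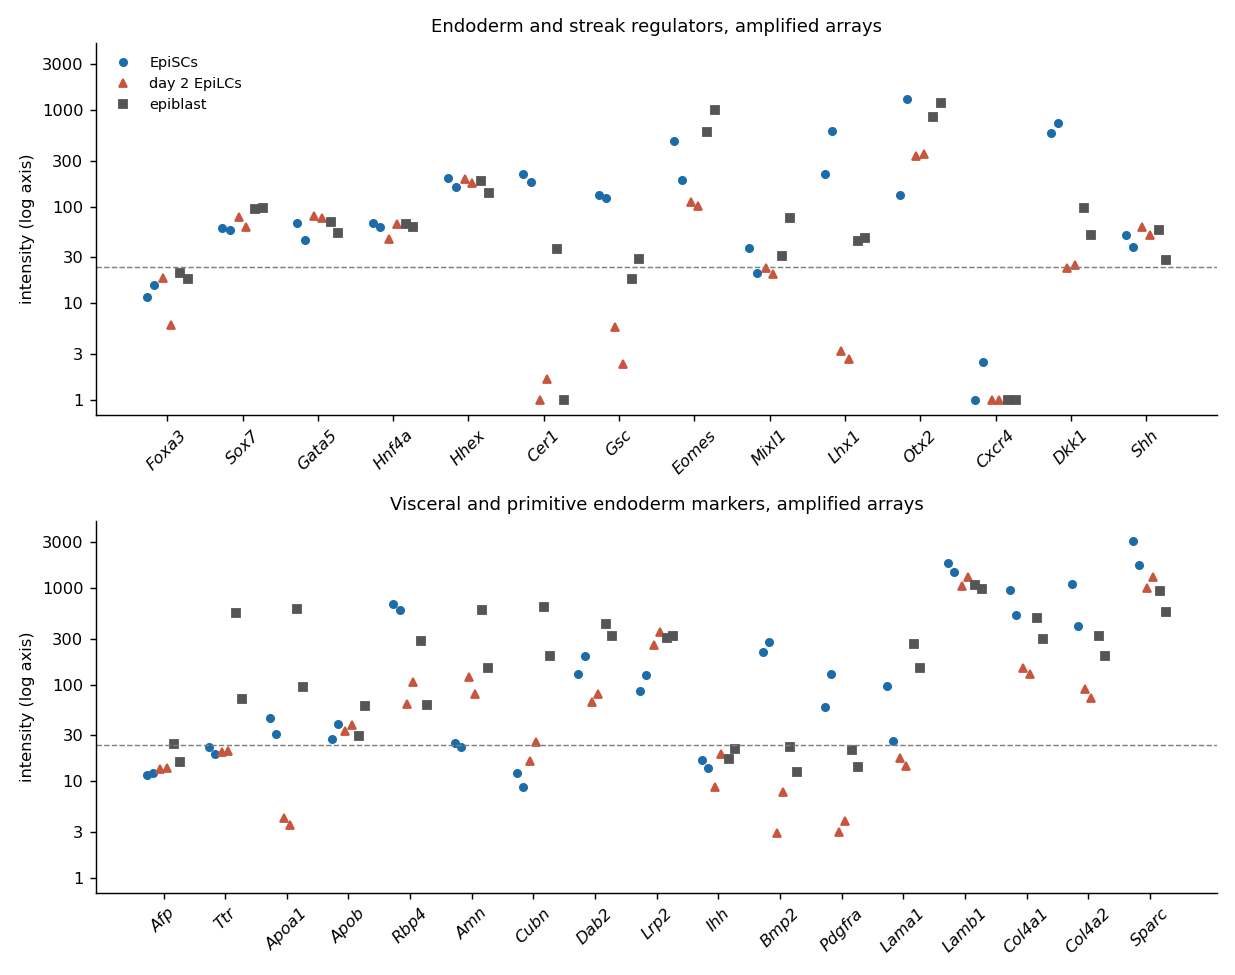
Intensity (log axis) of the endoderm and streak regulators (top) and the visceral and primitive endoderm markers (bottom) on amplified arrays of EpiSCs, day 2 EpiLCs and epiblast; each point is 1 array and the dashed line is the filter level of 24. Cer1, Gsc, Lhx1 and Dkk1 are highest in EpiSCs, while Ttr, Apoa1, Amn and Cubn are highest in the epiblast and differ between its arrays.

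Fibroblast markers also moved with EpiSCs. Of 12 such markers, none of them in the endoderm lists, 11 were called higher in EpiSCs than in day 2 EpiLCs on unamplified arrays, and 9 on amplified arrays. Their summed intensity was 29190 and 29341 in EpiSCs against 4264 and 4187 in day 2 EpiLCs, and 24051 and 16898 against 2353 and 2300 on amplified arrays. The part of such cells in the endoderm values was not tested.

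Genes of gut epithelium and of the Nodal pathway, which drives endoderm formation, gave mixed counts. Of 10 hindgut epithelium markers 3 were called higher and 2 lower in EpiSCs than in day 2 EpiLCs on each kind of array. The list median was 0.04 on unamplified and -0.42 on amplified arrays, against 0.02 and 0.03 over all genes. The simple-epithelium keratins Krt8 and Krt19 were higher by 4.44 and 6.49 on unamplified arrays, where the lowest difference of the list was -1.63. Of 11 Nodal pathway genes 2 were called higher there and 0 lower, the feedback inhibitors Lefty1, by 1.45 ± 0.07, and Lefty2, by 2.58 ± 0.11. Nodal itself, named after its values were seen, read 766 and 722 in EpiSCs, against 810 and 776 in day 2 EpiLCs, on unamplified arrays.

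The closest relatives of these factors did not share their order. Foxa3, the other gene of the FOXA family, lay between 4.09 and 29.6 on all arrays. Of 6 tested relatives on unamplified arrays 1 was called higher in EpiSCs than in day 2 EpiLCs, Gata2, by 1.80 ± 0.33. Gata2, a blood and germ line GATA factor, was also the 1 relative called in PGCLCs against day 2 EpiLCs. It read 624 and 1018 in PGCLCs against 20.4 and 16.8 in day 2 EpiLCs, at least 28.4-fold higher, and was higher by 6.34 ± 0.43 on amplified arrays. In unamplified PGCLCs against ESCs 3 relatives were called, Gata2 and Sox18 higher and Foxa3 lower. In E9.5 PGCs Gata2 was higher than in the epiblast by 4.11 ± 0.43.

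Among the members, Foxa1 and Foxa2 had r of 0.97 over the 12 unamplified and 0.96 over the 12 amplified arrays, and Foxa1 and Sox17 had 0.96 and 0.86. Gata4 had r between 0.09 and 0.48 with these 3 genes, and Gata6 between -0.64 and -0.39. These values rest mostly on the EpiSC arrays standing apart and are given as descriptions. Among 5845 other genes, those most like Foxa1 were Adamts12, Egflam and Rdh10, each with 0.951 as the smaller r of both sets in log2 intensity. Those most like Foxa2 were Lemd1, Serpinb2 and Cer1, at 0.941 to 0.953, and those most like Sox17 were Nrep, Prss23 and Bmp1, at 0.904 to 0.946. Likeness was lower for Gata4, with Ankrd49, Kdm8 and Atf7ip at 0.675 to 0.719, and for Gata6, with Mlana, Arhgef3 and Plekhd1 at 0.739 to 0.807. By rank correlation 0 of these 15 names came back.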

How the data were processed

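RNA was measured on Affymetrix mouse arrays in 24 samples. The deposited intensity values were used as given; they are linear and run from 1 to 17519. The sources used here do not state the software or normalization behind them. Depth has no direct meaning on arrays, and the number of arrays, 2 per group, limits the precision.

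Probe sets were named by the array annotation: 34958 had 1 symbol, 932 several, and 9211 were not listed. Of several probe sets of a gene, the one highest in mean log2 intensity was used. A floor of 4.2, the 10th percentile of all values, was set before taking log2. The filter asked for 2 arrays above the 40th percentile, 28.1 for unamplified and 24 for amplified arrays. Differences were fitted in limma 3.58.1 (R 4.3.3) over all 12 arrays of a set, with 6 residual degrees of freedom and the variance prior following intensity. P-values are two-sided. Every probe set was also fitted on its own. The steps were tested on simulated data. Members and lists were chosen with earlier results of these data known. The rule for named genes took the members, up to 4 called genes of a list with the largest differences in a comparison, and the 3 genes most like each member; not all that it allows are named. Genes outside it, such as Afp, Ttr, Cdh5, Foxa3, Sox18, Nodal, Dppa3 and Fgf5, were chosen after their values were seen. As a check of pairing, deviations of same-numbered arrays from their group means had r over 0.1 in all 15 group pairs of the amplified set, where replicate numbers follow an array code in the labels, and in 3 of 15 of the unamplified set.

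Alternatives were other floors, no filter, quantile normalization, the mean of a gene's probe sets, single probe sets, a replicate block, only the groups compared, and an array code as a term on unamplified arrays, arrays centred on their medians, no intensity trend, and each array left out. A fit without both amplified EpiSC arrays was chosen after seeing the data.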

Additional observations from a re-analysis of the deposited data

How the results depend on the processing

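The Foxa1 and Foxa2 calls in the EpiSC comparisons, 3 of them against cultured cells and 1 against the epiblast for each gene, stood in all 13 or 14 alternatives run, with differences from 3.81 to 7.71. Sox17 stood in all 14 on unamplified arrays and was lost in 5 of 13 in amplified EpiSCs against day 2 EpiLCs, with differences of 1.25 to 3.14. Of 90 pairs of a gene and a comparison, 15 were called, 6 more were called only under an alternative, and 69 never were. With the mean of a gene's probe sets, the number of members called was 0 in day 1 EpiLCs against ESCs, 0 in day 3 against day 2 EpiLCs, and 1 in PGCLCs against day 2 EpiLCs on unamplified arrays. That mean also turned 3 signs among the 15 and 6 pairs called in some setting, while signs of the other 69 pairs were not counted: Gata6 became 0.30 in EpiSCs against ESCs and 1.12 in PGCLCs against day 2 EpiLCs, and Gata4 became -0.067 in PGCLCs against ESCs; it averages probe sets that disagree. In day 2 EpiLCs against the epiblast the count was 0 with a floor at the 40th percentile, no filter, quantile normalization, single probe sets, only the groups compared, and without both amplified EpiSC arrays. In PGCLCs against E9.5 PGCs it was 0 with a floor at the 40th percentile and with only the groups compared. Apart from the values raised by the floor, the cause was not tested.

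Over single arrays left out, the count of members called ran from 0 to 1 in day 1 EpiLCs against ESCs, in PGCLCs against ESCs (1 without ESC replicate 1, Gata4 at 1.00), in E9.5 PGCs against the epiblast (1 without PGC replicate 2, Gata4 at -2.22) and in EpiSCs minus day 2 EpiLCs between amplified and unamplified arrays. In EpiSCs against ESCs it ran from 3 to 4, with Gata6 at -1.11 without EpiSC replicate 2. It was 0 throughout in day 2 EpiLCs against the epiblast and in PGCLCs against E9.5 PGCs. The replicate block raised the count in EpiSCs against the epiblast to 3, with Sox17 at 1.00, and changed no other call of a member. The array code as a term on unamplified arrays changed no count of members called. Over all genes, calls in day 2 EpiLCs against the epiblast numbered 150, and 309 with the block, 11 with only the groups compared, 266 without the EpiSC arrays and 23 to 69 with 1 array left out. In PGCLCs against E9.5 PGCs they numbered 452, and 774, 0, 692 and 91 to 284 under the same settings. In amplified EpiSCs against day 2 EpiLCs they numbered 1947, and 464 with only the groups compared and 3956 without EpiSC replicate 1. In EpiSCs against the epiblast they numbered 1823, and 459 and 3444 under those 2 settings. Signals near the floor limit what can be read for Foxa1 and Foxa2 outside EpiSCs.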

Other observations

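On the amplified arrays, the probe set of Hand1, a heart and extraembryonic mesoderm factor, read between 12925 and 15298 on all 12, against 110 to 267 on the 12 unamplified arrays. It was chosen after its values were seen. The Gata6 probe set 1443081_at also read higher on amplified arrays, at 85.7 to 143 against 34.4 to 80.2, while Gata5, a relative of both GATA members, read 45.4 to 94.5 against 43.1 to 76.3. Sox18, an endothelial relative of Sox17, read 1 on all 12 amplified arrays, against 6.09 to 52.6 on unamplified arrays, and Cxcr4, a chemokine receptor of endoderm and germ cells, also picked after its values were seen, read 4.21 and 1 in amplified PGCLCs, against 284 and 333 in unamplified PGCLCs.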
